A study of Mus musculus with 12 samples.

Results

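The glucocorticoid receptor gene *Nr3c1*, 5 of its well-known target genes (*Fkbp5*, *Tsc22d3*, *Zbtb16*, *Sgk1* and *Klf9*) and both genes of corticosteroid interconversion (*Hsd11b1* and *Hsd11b2*) were followed in bulk RNA-seq of mouse scars. These 8 genes were taken by symbol from the 35976 genes listed in the count files, and all 8 were listed and passed the filter on low counts, as did 18853 genes in all. Scars came from male mice 8 to 12 weeks old in 4 groups of 3 mice, which were Tem1WT/WT sham, Tem1WT/WT traction, Tem1lacZ/lacZ sham and Tem1lacZ/lacZ traction. All 12 mice carried a 1.5-cm wound in the back skin with a plastic device fixed over it from day 6. In the traction groups the device was lengthened by 1 mm a day to 8 mm in total, and in the sham groups it was left at its length. In Tem1lacZ/lacZ mice, a line backcrossed to C57BL/6 J, the only exon of *Tem1* (listed as *Cd248*) is replaced by the *lacZ* reporter in every cell of the body, so the deletion is not limited to fibroblasts. Part of each scar was sequenced as whole tissue. Circulating corticosterone was not analysed here.

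Glucocorticoids are steroid hormones that enter cells and bind the glucocorticoid receptor, a transcription factor held in the cytoplasm by chaperones. The bound receptor moves to the nucleus, where it activates genes such as *Fkbp5*, *Tsc22d3* (also called *Gilz*), *Per1* and *Zbtb16*, and lowers the transcription of many inflammatory genes. In skin and other tissues the supply of active hormone also depends on local enzymes: the product of *Hsd11b1* regenerates active corticosterone from its inert keto form, and the product of *Hsd11b2* does the reverse. In wounds, glucocorticoids are known for damping inflammation and slowing repair.

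The receptor binds as a dimer to a pair of inverted copies of a short motif, so the start-site windows of the targets were searched for it. The windows, taken from RefSeq on GRCm38.p6, run from 250 bases before to 50 bases after an annotated start, and 5 of the 7 members other than *Nr3c1* had at least 1 entry. The search covered both strands and used the letters AGAACA, whose reverse complement reads TGTTCT, found in 6233 of all 32851 windows of this length (19%), and the palindromic pattern GNACANNNTGTNC, found in 156 (0.475%). AGAACA was present in 3 of 6 windows of *Sgk1*, in 1 of 3 of *Tsc22d3* and in none of the windows of *Fkbp5*, *Klf9* and *Hsd11b1* (1 each). The longer pattern was present in 1 window, of *Sgk1*, where its first base lies at −188 from the start and where it overlaps the AGAACA matches at −189 and −180. The sequences given are the window of *Fkbp5*, the member that passed the test for traction, the window of *Tsc22d3* that holds AGAACA and the window of *Sgk1* that holds both patterns. They are written 5′ to 3′ on the strand of the gene, with matches in capitals. The window of *Fkbp5* is chr17:28486100-28486399 on the minus strand, that of *Tsc22d3* is chrX:140600473-140600772 on the minus strand, and that of *Sgk1* is chr10:21993640-21993939 on the plus strand.
Fkbp5: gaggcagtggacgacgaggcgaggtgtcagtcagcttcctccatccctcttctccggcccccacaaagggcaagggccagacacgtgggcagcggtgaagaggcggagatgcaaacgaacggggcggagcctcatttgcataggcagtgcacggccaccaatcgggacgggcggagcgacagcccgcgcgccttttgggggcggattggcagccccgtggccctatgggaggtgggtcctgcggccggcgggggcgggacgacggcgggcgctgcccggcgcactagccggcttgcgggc
Tsc22d3: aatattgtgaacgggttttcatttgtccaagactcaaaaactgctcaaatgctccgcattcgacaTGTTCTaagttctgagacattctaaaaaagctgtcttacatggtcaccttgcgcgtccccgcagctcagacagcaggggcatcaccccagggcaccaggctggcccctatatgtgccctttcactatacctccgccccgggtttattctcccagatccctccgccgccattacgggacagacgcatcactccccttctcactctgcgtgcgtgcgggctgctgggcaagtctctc
Sgk1: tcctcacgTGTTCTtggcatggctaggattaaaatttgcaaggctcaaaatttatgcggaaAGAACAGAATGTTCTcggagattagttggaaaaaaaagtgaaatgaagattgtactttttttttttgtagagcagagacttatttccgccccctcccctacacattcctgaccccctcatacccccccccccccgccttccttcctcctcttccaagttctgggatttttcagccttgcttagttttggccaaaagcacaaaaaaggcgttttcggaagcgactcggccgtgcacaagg
A match describes letters in the window and is not a binding site, and a window without one says only that these letters are not in it.

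Library totals ranged from 41536788 to 64644293 counts (median 48173798), and no library was a copy of another. *Cd248* followed the genotype in all 12 libraries, with 3883 to 16413 counts in Tem1WT/WT mice and 0 to 13 in Tem1lacZ/lacZ mice. Levels are given as CPM, the counts scaled to library totals adjusted by TMM, in the order of replicates 1, 2 and 3. Group comparisons are log2 fold changes with a standard error (SE) from edgeR's quasi-likelihood test. A gene counted as called where its p, adjusted by Benjamini-Hochberg over 18853 genes, was under 0.05. The titles number the samples of a group and the methods name 3 scars per group, and p-values measure the spread between these samples. Replicate 1 of the Tem1WT/WT traction group stood apart in neutrophil markers (10 genes, summed 7063 CPM against 666 and 314 in replicates 2 and 3). Replicate 1 of the Tem1WT/WT sham group stood apart in skeletal muscle markers (10 genes, 14865 CPM against 3919 and 1445). In the Tem1lacZ/lacZ groups, white adipocyte markers (10 genes) stood apart in replicate 1 of sham (6938 CPM against 549 and 1693). They also did so in replicate 3 of traction (3982 CPM against 448 and 374). Replicate 1 of Tem1lacZ/lacZ traction stood apart in keratinocyte markers (10 genes, 45247 CPM against 18386 and 20919).

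Per kilobase of exon (GENCODE vM21), the members spanned a wide range of levels. *Tsc22d3* (median over the 12 libraries 33.4 CPM per kb) and *Sgk1* (32.2) were highest, followed by *Nr3c1* (18.1) and *Klf9* (11.4). *Fkbp5* (6.07), *Zbtb16* (5.99) and *Hsd11b1* (3.17) were lower, and *Hsd11b2* was lowest at 0.233 CPM per kb. *Hsd11b1*, between 1.28 and 8.36 CPM per kb, lay above *Hsd11b2*, between 0.0708 and 0.580, in all 12 libraries. The spread between mice of a group, given by the biological coefficient of variation from edgeR, was 20.7% for *Nr3c1*, 20.9% for *Sgk1*, 24.1% for *Klf9*, 24.6% for *Fkbp5* and 25.8% for *Tsc22d3*, below the median gene (27.1%). It was 43.5% for *Zbtb16*, 49.8% for *Hsd11b1* and 59.0% for *Hsd11b2*.

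The first question was how stretching of the scar changed these genes in each genotype. With traction in Tem1WT/WT mice, *Fkbp5* rose and was the 1 member of 8 called by edgeR, where 9.15% of all genes were called and 5.61% were called higher. DESeq2 also called *Fkbp5* alone, and limma-voom called 0 members. *Fkbp5* was also the 1 member whose sham and traction libraries did not overlap, where 35.7% of all genes did not overlap and 17.7% were higher without overlap. With traction in Tem1lacZ/lacZ mice, edgeR, DESeq2 and limma-voom each called 0 of 8, and edgeR called 0% of all genes there. In that comparison 1 member, *Sgk1*, had an unadjusted p under 0.05 in edgeR, as had 8.12% of all genes. Averaged over both genotypes, *Fkbp5* was again the 1 member called, by all 3 tools, where edgeR called 9.73% of genes and 6.5% as higher.

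The second question was how the deletion of *Tem1* changed these genes with and without traction. Between the genotypes with traction, edgeR called 0 of 8 members and 0.106% of all genes. *Tsc22d3* and *Zbtb16* had an unadjusted p under 0.05 (26.1% of all genes). DESeq2 called 1 member, *Zbtb16*, and limma-voom 0. In these groups the libraries did not overlap for 3 of 8 members, *Zbtb16* (higher in Tem1lacZ/lacZ mice), *Tsc22d3* and *Klf9* (both lower), which was the case for 26.6% of all genes, 12.9% higher and 13.7% lower. Between the sham groups all 3 tools called 0 members, and edgeR called 0.0106% of genes. *Fkbp5* had an unadjusted p under 0.05 there in edgeR (11.7% of all genes). Averaged over both treatments, edgeR called 0 members and 0.053% of genes, DESeq2 called *Tsc22d3* and *Zbtb16*, and limma-voom called *Zbtb16*. Shares of all genes were taken from the main edgeR fit alone, so calls by DESeq2 and limma-voom have no such share to be read against. The unadjusted p of that average was under 0.05 for 5 of 8 members in edgeR, against 28.4% of all genes. The genotype by traction interaction gave 0 calls among the members with all 3 tools, 0% of all genes in edgeR, and 0 members at an unadjusted p under 0.05 in edgeR (8.91% of all genes). Both the traction effect in Tem1WT/WT mice and the genotype effect with traction use the same 3 Tem1WT/WT traction libraries, so the comparisons are not independent.

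**Figure D1:**
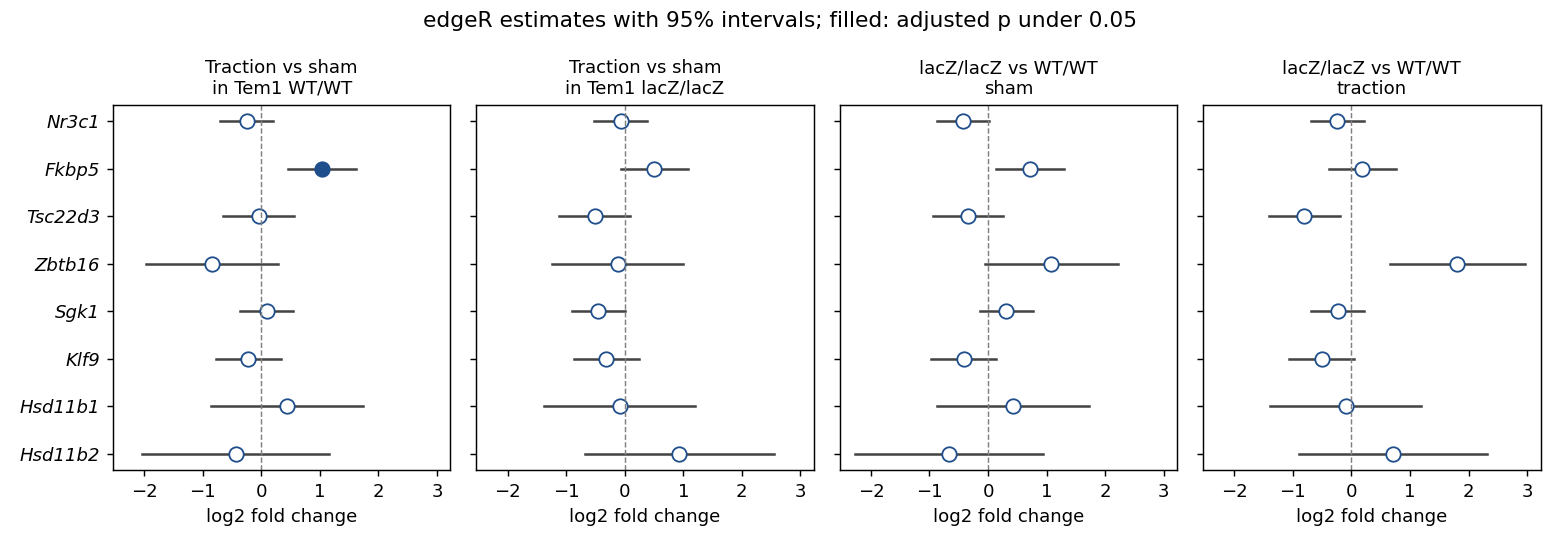
Log2 fold changes of the 8 members in edgeR (x axis) for the 4 comparisons between pairs of groups, with 95% intervals as lines and a filled point where the adjusted p was under 0.05. The 1 filled point is *Fkbp5* for traction in Tem1WT/WT mice, at 1.03, and the widest intervals are those of *Hsd11b2*.

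*Nr3c1* (Entrez 14815, on mouse chromosome 18) encodes the receptor itself. Its level was 199, 144 and 144 CPM in Tem1WT/WT sham scars, 144, 149 and 116 CPM in Tem1WT/WT traction scars, 147, 95.7 and 120 CPM in Tem1lacZ/lacZ sham scars, and 97.5, 114 and 134 CPM in Tem1lacZ/lacZ traction scars. The highest library was replicate 1 of the Tem1WT/WT sham group, and all neighbouring groups in the order of means overlapped. With traction, the log2 fold change of *Nr3c1* was −0.25 in Tem1WT/WT mice (95% interval −0.70 to 0.19, adjusted p = 0.421 in edgeR) and −0.07 in Tem1lacZ/lacZ mice (−0.52 to 0.38, adjusted p = 0.939). Averaged over both treatments, the level in Tem1lacZ/lacZ mice differed by −0.33 (SE 0.14, adjusted p = 0.159 in edgeR, 95% interval −0.65 to −0.02). In whole tissue, fewer cells of a type and less RNA per cell cannot be told apart.

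*Fkbp5* (Entrez 14229, chr17:28399094-28517527 on the minus strand of GRCm38) encodes a co-chaperone that binds the receptor complex and lowers its affinity for hormone, and is itself among the genes most responsive to glucocorticoids. Its level was 43.5, 31.5 and 28.7 CPM in Tem1WT/WT sham scars and 68.3, 54.0 and 89.8 CPM in Tem1WT/WT traction scars. It was 43.5, 53.3 and 73.4 CPM in Tem1lacZ/lacZ sham scars and 60.9, 87.6 and 93.1 CPM in Tem1lacZ/lacZ traction scars. Every Tem1WT/WT sham library lay below every traction library of either genotype, whereas the sham and traction libraries of Tem1lacZ/lacZ mice overlapped. By means, *Fkbp5* was lowest in Tem1WT/WT sham scars (34.6 ± 7.87 CPM, SD, n = 3), then in Tem1lacZ/lacZ sham scars (56.7 ± 15.2), Tem1WT/WT traction scars (70.7 ± 18.0) and Tem1lacZ/lacZ traction scars (80.5 ± 17.2), and each neighbouring pair overlapped.

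Traction raised *Fkbp5* 2.04-fold in Tem1WT/WT mice, a log2 fold change of 1.03 (SE 0.26, 95% interval 0.45 to 1.61, adjusted p = 0.0397 in edgeR's quasi-likelihood test). In Tem1lacZ/lacZ mice the log2 fold change was 0.51 (95% interval −0.07 to 1.08, adjusted p = 0.629 in edgeR). The difference between these traction effects was −0.53 (95% interval −1.33 to 0.28, adjusted p = 0.651 for the interaction in edgeR), so a difference between the genotypes was not shown. Averaged over both genotypes, traction raised *Fkbp5* by 0.77 on the log2 scale (SE 0.18, adjusted p = 0.0342 in edgeR). Between the genotypes the log2 fold change was 0.71 without traction (95% interval 0.14 to 1.29, adjusted p = 0.409 in edgeR) and 0.19 with traction (−0.38 to 0.76, adjusted p = 0.669).

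The direction of the traction effect on *Fkbp5* in Tem1WT/WT mice was the same in all 19 alternatives, and its adjusted p was under 0.05 in 7 of them. It missed the threshold with upper quartile normalization (0.92, adjusted p = 0.0509), in limma-voom (0.98, adjusted p = 0.0611) and with only the libraries of both Tem1WT/WT groups in edgeR (1.03, adjusted p = 0.0863). It also missed it in 9 of 12 edgeR fits without 1 library. Without replicates 1, 2 and 3 of the Tem1WT/WT sham group the log2 fold change was 1.23, 0.99 and 0.93 (adjusted p = 0.121, 0.110 and 0.0883 in edgeR), and without replicates 1 and 3 of the Tem1WT/WT traction group 1.03 and 0.83 (adjusted p = 0.0693 and 0.104). Without replicates 2 and 3 of the Tem1lacZ/lacZ sham group it was 1.02 each (adjusted p = 0.0549 and 0.0531 in edgeR), and without replicates 2 and 3 of the Tem1lacZ/lacZ traction group 1.04 each (adjusted p = 0.0526 and 0.0516). The average over both genotypes lost its call without each replicate of the Tem1WT/WT sham group, replicate 3 of the Tem1WT/WT traction group, replicates 1 and 2 of the Tem1lacZ/lacZ sham group and replicates 2 and 3 of the Tem1lacZ/lacZ traction group (0.69 to 0.87, adjusted p = 0.0572 to 0.0877 in edgeR). Blood endothelial markers moved with the same contrast, as 6 of 10 were called higher and their summed level was 974 to 1116 CPM in Tem1WT/WT traction scars against 401 to 559 CPM in sham scars. In this contrast 4 of 8 neutrophil and 2 of 10 fibroblast markers were called higher and 3 of 10 hair follicle markers lower (10 of 10 negative, median −1.78, summed 15408 to 28562 CPM in sham and 4219 to 7647 CPM in traction scars). White adipocyte and skeletal muscle markers were all negative (10 of 10 each, medians −1.47 and −2.80, 0 called). The part of these cells in the rise of *Fkbp5* was not tested. The span of *Fkbp5* overlaps the antisense gene *AC154912.1*, and without a known strand setting of the counting their reads cannot be told apart where they overlap.

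**Figure D2:**
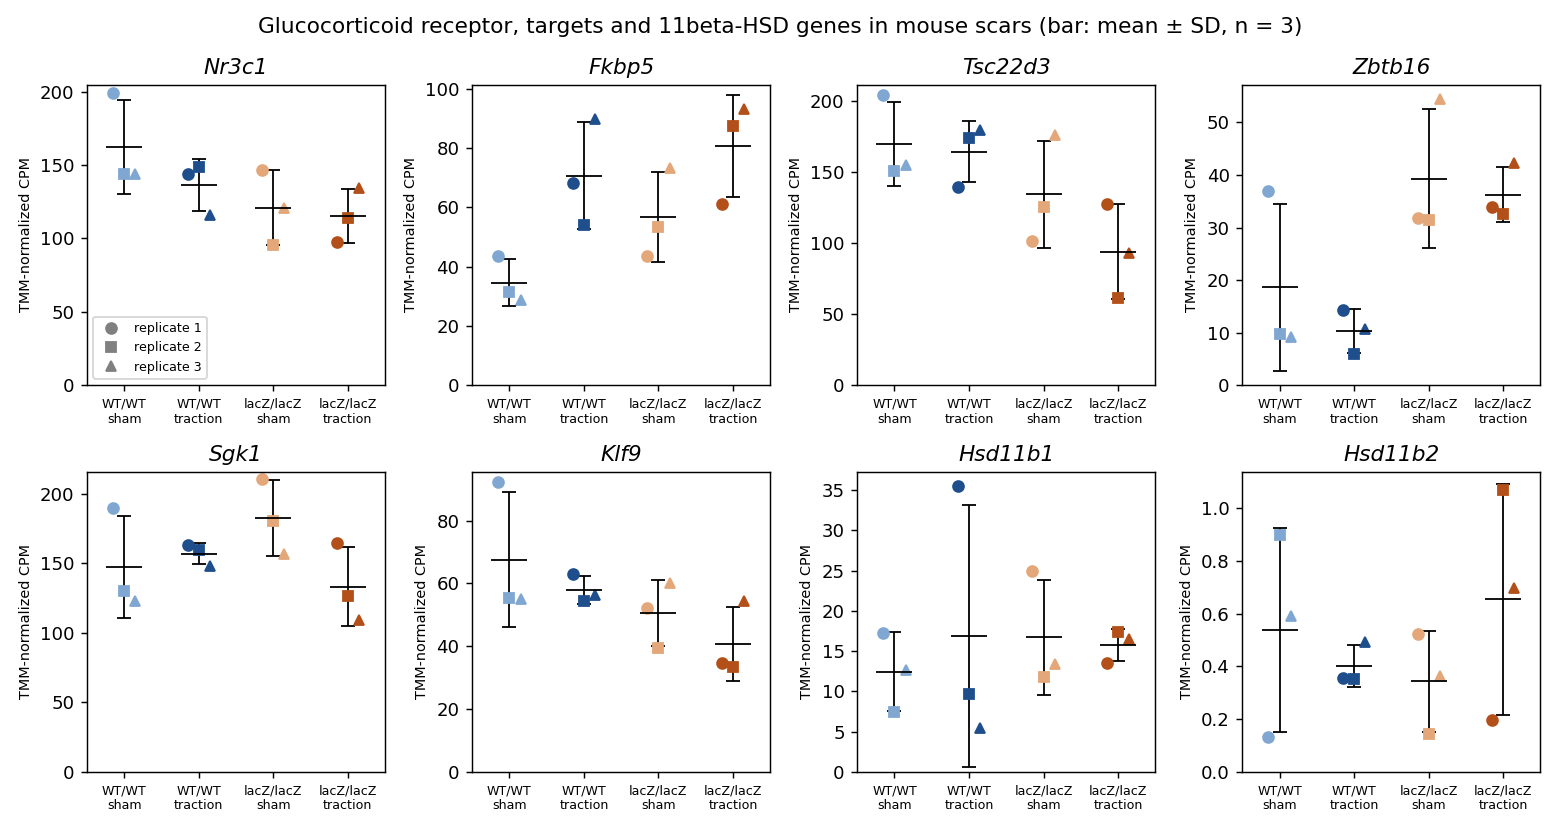
TMM-normalized CPM (y axis, from 0) of each member in the 12 libraries, by group, with the replicate number given by the shape of the point and the mean ± SD of 3 mice as a bar. The *Fkbp5* points of Tem1WT/WT sham scars (28.7 to 43.5 CPM) lie below those of both traction groups (54.0 to 93.1 CPM), and *Zbtb16* is highest in Tem1lacZ/lacZ scars except for replicate 1 of the Tem1WT/WT sham group.

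*Tsc22d3* (Entrez 14605, chrX:140539528-140600659, minus strand) encodes GILZ, a leucine zipper protein that mediates anti-inflammatory effects of glucocorticoids. Its level was 204, 150 and 155 CPM in Tem1WT/WT sham scars, 139, 174 and 179 CPM in Tem1WT/WT traction scars, 102, 125 and 176 CPM in Tem1lacZ/lacZ sham scars, and 127, 60.9 and 93.2 CPM in Tem1lacZ/lacZ traction scars. With traction, each Tem1lacZ/lacZ library lay below each Tem1WT/WT library, while the sham groups overlapped. The log2 fold change between the genotypes was −0.81 with traction (SE 0.28, 95% interval −1.41 to −0.20, adjusted p = 0.117 in edgeR), −0.34 without traction (95% interval −0.94 to 0.26, adjusted p = 0.622) and −0.57 on average (SE 0.19, adjusted p = 0.0950). DESeq2 called the average (−0.58, adjusted p = 0.0406). For traction, *Tsc22d3* had a log2 fold change of −0.05 in Tem1WT/WT mice (95% interval −0.65 to 0.55, adjusted p = 0.923 in edgeR) and −0.51 in Tem1lacZ/lacZ mice (−1.12 to 0.09, adjusted p = 0.636), and the interaction was −0.47 (−1.32 to 0.38, adjusted p = 0.710).

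*Zbtb16* (Entrez 235320, chr9:48654297-48836222, minus strand) encodes PLZF, a zinc finger repressor that is strongly induced by glucocorticoids in many cell types. Its level was 36.9, 9.65 and 9.22 CPM in Tem1WT/WT sham scars and 14.4, 5.96 and 10.7 CPM in Tem1WT/WT traction scars. The sham and traction scars of Tem1lacZ/lacZ mice held 31.9, 31.4 and 54.6 CPM and 33.9, 32.6 and 42.2 CPM, respectively. All 6 Tem1lacZ/lacZ libraries thus lay above 5 of the 6 Tem1WT/WT libraries, the other being replicate 1 of the sham group. With traction the groups did not overlap, and the level was 3.51-fold that of Tem1WT/WT mice (log2 fold change 1.81, SE 0.52, 95% interval 0.65 to 2.97), which did not pass edgeR's test (adjusted p = 0.0963). DESeq2 called it (1.80, adjusted p = 0.0127), and over all 19 alternatives the adjusted p ran from 0.0127 to 0.299.

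Without traction the difference in *Zbtb16* was 1.08 (95% interval −0.05 to 2.21, adjusted p = 0.439 in edgeR), and averaged over both treatments it was 1.45 (SE 0.37, adjusted p = 0.0700). The average was called by DESeq2 (1.44, adjusted p = 0.00385), by limma-voom (2.03, adjusted p = 0.0342) and in edgeR without replicate 1 of the Tem1WT/WT sham group (1.94, adjusted p = 0.0419). Without that library the difference between the sham groups was 2.06. It was not called there, as its adjusted p was 0.372 to 0.760 in edgeR over the 12 fits without 1 library. The traction effect on *Zbtb16* was −0.84 on the log2 scale in Tem1WT/WT mice (95% interval −1.98 to 0.29, adjusted p = 0.283 in edgeR), and this turned to 0.13 without the same library. In Tem1lacZ/lacZ mice the value was −0.12 (−1.23 to 1.00, adjusted p = 0.960). The high *Zbtb16* library of the sham group was also the one with the highest summed skeletal muscle markers, all 10 of which had counts in every library. Between the genotypes with traction, 10 of 10 muscle markers and 10 of 10 white adipocyte markers had positive log2 fold changes (medians 1.11 and 1.17, 0 called). So had 10 of 10 hair follicle, 10 of 10 keratinocyte and 7 of 8 sebocyte markers (medians 0.98, 0.78 and 0.91, 0 called). Negative were 8 of 8 neutrophil, 10 of 10 blood endothelial and 9 of 10 fibroblast markers (medians −2.55, −0.68 and −0.96, 0 called). Summed muscle markers were 371 to 2310 CPM in Tem1WT/WT and 1640 to 2819 CPM in Tem1lacZ/lacZ traction scars, and summed adipocyte markers 322 to 1390 and 374 to 3982 CPM. Between the sham groups, 10 of 10 muscle markers had negative and 10 of 10 adipocyte markers positive log2 fold changes (medians −1.50 and 0.97, 0 called). The part of these cells in the *Zbtb16* level was not tested.

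*Sgk1* (Entrez 20393, chr10:21882184-21999903, plus strand) encodes a serine/threonine kinase that regulates ion transport and cell survival and responds to both glucocorticoids and mineralocorticoids. Its level was 189, 130 and 123 CPM in Tem1WT/WT sham scars, 163, 159 and 148 CPM in Tem1WT/WT traction scars, 210, 180 and 156 CPM in Tem1lacZ/lacZ sham scars, and 165, 126 and 109 CPM in Tem1lacZ/lacZ traction scars. Neighbouring groups overlapped in every case, and the spread was smallest in Tem1WT/WT traction scars (157 ± 7.54 CPM, SD, n = 3). *Sgk1* had a log2 fold change with traction of −0.45 in Tem1lacZ/lacZ mice (unadjusted p = 0.0497, adjusted p = 0.614 in edgeR) and 0.09 in Tem1WT/WT mice (95% interval −0.36 to 0.54, adjusted p = 0.802). The interaction was −0.54 (95% interval −1.18 to 0.10, adjusted p = 0.583 in edgeR). Between the genotypes it differed by 0.31 without traction (−0.14 to 0.76, adjusted p = 0.556 in edgeR) and by −0.23 with traction (−0.69 to 0.22, adjusted p = 0.486).

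*Klf9* (Entrez 16601, chr19:23141226-23168134, plus strand) encodes a Krüppel-like transcription factor that is a direct target of the receptor in skin keratinocytes. Its level was 92.4, 55.3 and 55.0 CPM in Tem1WT/WT sham scars, 63.0, 54.5 and 56.3 CPM in Tem1WT/WT traction scars, 52.1, 39.5 and 60.1 CPM in Tem1lacZ/lacZ sham scars, and 34.6, 33.3 and 54.3 CPM in Tem1lacZ/lacZ traction scars. With traction the groups were separated by a gap of less than 1 CPM, from 54.3 to 54.5, and replicate 1 of the Tem1WT/WT sham group was again the highest library. The log2 fold change between the genotypes was −0.51 with traction (95% interval −1.07 to 0.05, adjusted p = 0.227 in edgeR), −0.42 without (−0.98 to 0.14, adjusted p = 0.518) and −0.46 on average (SE 0.18, adjusted p = 0.126). Its log2 fold change with traction was −0.22 in Tem1WT/WT mice (95% interval −0.78 to 0.33, adjusted p = 0.581 in edgeR), which was 0.07 without replicate 1 of the sham group, and −0.31 in Tem1lacZ/lacZ mice (−0.87 to 0.24, adjusted p = 0.737).

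The heat map of deviations from each gene's mean sets the targets side by side. *Fkbp5* and *Zbtb16* were above their means in all 3 Tem1lacZ/lacZ traction libraries, where *Tsc22d3* was below its mean in all 3. *Nr3c1* and *Klf9* followed each other most closely among the members, with a mean absolute difference of 0.17 between their centred log2 CPM over the 12 libraries. Of all 18853 genes tested, *Nr3c1* was the nearest to *Klf9* by this measure, while *Klf9* ranked 141 in nearness to *Nr3c1*. The measure is not scaled, so genes that vary little lie closer to each other. Own mean absolute deviations were 0.230 for *Nr3c1*, 0.276 for *Klf9* and 0.943 for *Zbtb16*. *Tsc22d3* and *Zbtb16* differed by 1.15 and *Zbtb16* and *Hsd11b2* by 1.29, the largest values among the pairs.

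**Figure D3:**
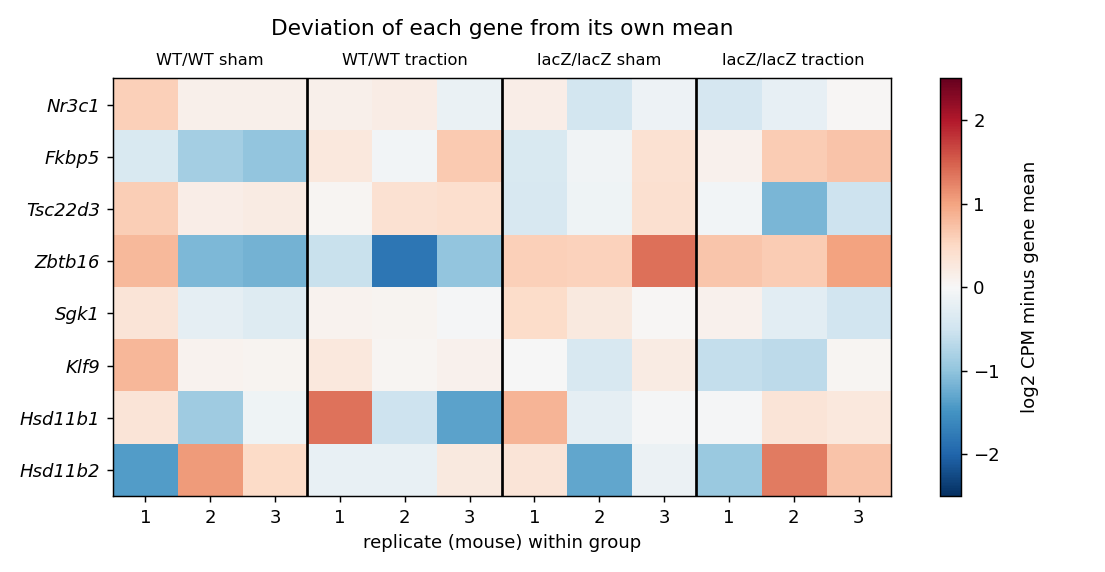
Log2 CPM of each member minus its mean over the 12 libraries (colour, from blue for low to red for high), with 1 column per library in groups of 3 mice. *Nr3c1*, *Tsc22d3*, *Zbtb16* and *Klf9* share a red cell in replicate 1 of the Tem1WT/WT sham group, and *Zbtb16* is red in all 6 Tem1lacZ/lacZ libraries.

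*Hsd11b1* (Entrez 15483, chr1:193221634-193264075, minus strand), whose product regenerates active hormone inside cells, was at 17.2, 7.40 and 12.7 CPM in Tem1WT/WT sham scars and at 35.5, 9.63 and 5.44 CPM in Tem1WT/WT traction scars. In Tem1lacZ/lacZ mice it was at 24.9, 11.8 and 13.4 CPM in sham scars and at 13.5, 17.3 and 16.5 CPM in traction scars. The groups overlapped throughout, and the Tem1WT/WT traction group held both the highest and the lowest of the 12 libraries. *Hsd11b1* had a log2 fold change with traction of 0.44 in Tem1WT/WT mice (95% interval −0.85 to 1.73, adjusted p = 0.644 in edgeR) and −0.08 in Tem1lacZ/lacZ mice (−1.37 to 1.21, adjusted p = 0.977). Without replicate 1 of the Tem1WT/WT traction group the first value turned to −0.74. Between the genotypes with traction the log2 fold change was −0.10 (95% interval −1.39 to 1.19, adjusted p = 0.932 in edgeR), and it turned to 1.10 without that library. The same library had the highest summed T lymphocyte markers (8 genes with counts in every library, 129 CPM against 26.7 to 63.3 CPM in the other 11). It also had the highest summed neutrophil markers (10 genes, 7063 CPM against 116 to 666 CPM in the other 11). Its summed white adipocyte markers (10 genes) were 1390 CPM, against 322 and 419 CPM in replicates 2 and 3 of its group. Tem1WT/WT sham scars held 1552 to 1921 CPM of these markers, more than that library. The part of these cells in the *Hsd11b1* level of that library was not tested. The span of *Hsd11b1* overlaps *Lamb3* and *4930570N18Rik* on the opposite strand. The strand setting of the counting is not given in the sources used here, so reads from an overlap cannot be told apart.

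*Hsd11b2* (Entrez 15484, chr8:105518755-105523988, plus strand), whose product inactivates the hormone and which is best known from kidney, was close to the limit of detection, with 6 to 62 counts per library. Its level was 0.130, 0.899 and 0.590 CPM in Tem1WT/WT sham scars, 0.357, 0.353 and 0.493 CPM in Tem1WT/WT traction scars, 0.524, 0.142 and 0.363 CPM in Tem1lacZ/lacZ sham scars, and 0.197, 1.07 and 0.698 CPM in Tem1lacZ/lacZ traction scars. All neighbouring groups overlapped. Its log2 fold change with traction was −0.44 in Tem1WT/WT mice (95% interval −2.03 to 1.15, adjusted p = 0.715 in edgeR) and 0.94 in Tem1lacZ/lacZ mice (−0.68 to 2.55, adjusted p = 0.729). The interaction was 1.37 (95% interval −0.89 to 3.64, adjusted p = 0.676 in edgeR). Between the genotypes the log2 fold change was −0.66 without traction (−2.27 to 0.94, adjusted p = 0.728) and 0.71 with traction (−0.89 to 2.31, adjusted p = 0.553), and each of these intervals includes 0.

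Other genes of the pathway were counted on 4 lists, of which 102 genes were tested. Traction in Tem1WT/WT mice gave 18 calls among them in edgeR, 34 in DESeq2 and 14 in limma-voom, where edgeR called 9.15% of all genes and 5.61% as higher. This count was 0 with only the libraries of both Tem1WT/WT groups and 11 with no filter on low counts. It was 0 without replicate 1 or replicate 2 of the Tem1WT/WT sham group, 9 without replicate 3, 4 without replicate 3 of the Tem1lacZ/lacZ sham group, 8 without replicate 1 of the Tem1WT/WT traction group and 34 without its replicate 2. The 20 chaperones and coregulators of the receptor gave 0, with a median log2 fold change of 0.06 against −0.01 for all genes. Between the genotypes their median was −0.30 without traction (14 of 20 negative) and −0.23 with traction (18 of 20 negative), with 0 called. The medians of all genes there were −0.01 and 0.01. In the traction contrast of Tem1WT/WT mice 2 further genes were read. *Fkbp4*, whose product is the co-chaperone that *Fkbp5* opposes, had a log2 fold change of −0.32 (95% interval −0.75 to 0.12, adjusted p = 0.298 in edgeR), and the mineralocorticoid receptor gene *Nr3c2* had −0.76 (−1.87 to 0.36, adjusted p = 0.330).

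Of 40 other genes known to be induced by glucocorticoids, 5 rose and 0 passed the test as lower with traction in Tem1WT/WT mice, against 9.15% of all genes called and 5.61% called higher. Of the 40 log2 fold changes, 25 were positive and 15 negative (median 0.30). *Per1*, a circadian repressor and direct target of the receptor, rose from 96.8 ± 1.43 to 173 ± 45.7 CPM (SD, n = 3 each), a log2 fold change of 0.84 (adjusted p = 0.0311 in edgeR). Its adjusted p was over 0.05 without any 1 of the 3 Tem1WT/WT sham libraries, replicate 3 of the Tem1lacZ/lacZ sham group or replicate 1 of the Tem1WT/WT traction group (0.59 to 0.87, adjusted p = 0.0524 to 0.122). *Ddit4*, an inhibitor of mTOR signaling, rose by 1.06 (adjusted p = 0.0305 in edgeR), *Cebpd*, a transcription factor of the acute phase, by 1.30 (adjusted p = 0.0329), and *Cyp7b1*, an oxysterol hydroxylase, by 2.47 (adjusted p = 0.0386). *Ddit4*, *Cebpd* and *Cyp7b1* passed in 12, 13 and 10 of 19 alternatives. All 3 missed the threshold without any 1 of the Tem1WT/WT sham libraries, without replicate 3 of the Tem1lacZ/lacZ sham group and without replicate 1 of the Tem1WT/WT traction group, *Cyp7b1* also without replicate 2 of the Tem1lacZ/lacZ sham group and *Ddit4* without replicate 3 of the Tem1WT/WT traction group. Without replicate 1 of the Tem1WT/WT traction group the log2 fold change was 1.47 for *Cyp7b1* (adjusted p = 0.0889 in edgeR) and 0.86 for *Cebpd* (adjusted p = 0.0643). *Lcn2*, an iron-sequestering protein that is also abundant in neutrophils, rose by 4.98 (adjusted p = 0.0473 in edgeR), with traction libraries between 7.44 and 650 CPM that overlapped the sham libraries (6.19 to 8.51 CPM). Without replicate 1 of the Tem1WT/WT traction group the log2 fold change of *Lcn2* was 0.93 (adjusted p = 0.234 in edgeR), and *Lcn2* kept its call only without replicate 2 or replicate 3 of that group among the 12 fits that left out 1 library. *Dusp1* (1.25, adjusted p = 0.0952), *Mt1* (1.31, adjusted p = 0.0586) and *Mt2* (1.41, adjusted p = 0.0801), encoding a MAP kinase phosphatase and metallothioneins, did not pass edgeR's test, and DESeq2 called all 3 (adjusted p = 0.0364, 0.0113 and 0.0223). In edgeR, *Mt1* also passed without replicate 2 or replicate 3 of the Tem1WT/WT traction group (adjusted p = 0.0489 and 0.0445). Without replicate 1 of that group the log2 fold changes of *Dusp1*, *Mt1* and *Mt2* were 0.52, 0.71 and 0.83. In Tem1lacZ/lacZ mice edgeR called 0 of the 102 genes with traction, 10 had an unadjusted p under 0.05 (8.12% of all genes), DESeq2 called 1 and limma-voom 4. The median of the GR-induced list was −0.11 there.

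Between the genotypes with traction, *Per1* and *Errfi1* were the 2 GR-induced genes called, both lower in Tem1lacZ/lacZ mice (median of the list −0.37), where 0.106% of all genes were called. *Per1* was at 42.7 ± 4.81 CPM in Tem1lacZ/lacZ traction scars (SD, n = 3), a log2 fold change of −2.02 (SE 0.18, adjusted p = 0.00257 in edgeR). It was also lower without traction, at 46.4 to 57.1 CPM in Tem1lacZ/lacZ and 95.2 to 98.0 CPM in Tem1WT/WT sham scars, where it was not called. *Errfi1*, whose product inhibits the EGF receptor, was at 162 ± 26.1 CPM in Tem1WT/WT and 55.1 ± 5.12 CPM in Tem1lacZ/lacZ traction scars (−1.55, adjusted p = 0.00540 in edgeR). *Per1* passed the threshold in 18 and *Errfi1* in 16 of 19 alternatives, and both missed it with only the libraries of the 2 traction groups (adjusted p = 0.285 in edgeR). *Errfi1* also missed it without replicate 2 or replicate 3 of the Tem1lacZ/lacZ traction group (adjusted p = 0.0509 and 0.0619 in edgeR). Averaged over both treatments *Per1* differed by −1.46 (adjusted p = 0.00117 in edgeR) and *Errfi1* by −1.02 (adjusted p = 0.00928, and 0.0511 without replicate 3 of the Tem1lacZ/lacZ traction group). *Dusp1* differed by −2.03 with traction (95% interval −3.07 to −0.998, adjusted p = 0.0887 in edgeR), which DESeq2 called (−2.05, adjusted p = 0.00127) and edgeR called without replicate 2 of the Tem1WT/WT traction group (−2.19, adjusted p = 0.0369). Its log2 fold change was −1.29 without replicate 1 of that group. Between the sham groups edgeR called 0 of the 102 genes, 14 had an unadjusted p under 0.05 (11.7% of all genes), DESeq2 called 1 and limma-voom 0. The interaction gave 0 calls in edgeR and limma-voom and 6 in DESeq2, with 24 genes at an unadjusted p under 0.05 in edgeR (8.91% of all genes). For *Per1* the interaction was −1.13 (95% interval −1.68 to −0.57, unadjusted p = 0.000939, adjusted p = 0.548 in edgeR).

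Inflammatory genes that glucocorticoids are known to repress were the list with the largest median in Tem1WT/WT mice, 3.90, where 10 of 25 rose with traction and 0 were called lower, against 5.61% of all genes called higher. *Nos2*, an inducible nitric oxide synthase, rose by 6.51 on the log2 scale (adjusted p = 0.0170 in edgeR), the neutrophil chemokine *Cxcl5* by 7.15 (adjusted p = 0.0217), *Il1b* by 6.42 (adjusted p = 0.0432) and the collagenase *Mmp13* by 5.19 (adjusted p = 0.0300). Without replicate 1 of the Tem1WT/WT traction group the log2 fold change was 2.49 for *Il1b* (adjusted p = 0.134 in edgeR), 2.83 for *Mmp13*, 5.25 for *Nos2* and 6.10 for *Cxcl5*, and the last 3 kept their calls. *Nos2*, *Cxcl5* and *Mmp13* missed the threshold without replicate 1 or replicate 2 of the Tem1WT/WT sham group, and *Mmp13* also without replicate 3 of the Tem1lacZ/lacZ sham group. *Il1b* missed it without any 1 sham library of either genotype or replicate 2 of the Tem1lacZ/lacZ traction group as well. Not every gene of the list rose in all 3 Tem1WT/WT traction libraries. *Tnf* was between 1.28 and 101 CPM there and between 2.61 and 3.28 CPM in the sham libraries. *Cxcl2* was between 8.77 and 1807 CPM with traction and between 0.856 and 11.2 CPM in sham. *Il1a* was between 6.36 and 427 CPM with traction and between 8.37 and 12.7 CPM in sham. Traction and sham libraries also overlapped for *Ccl2*, *Ccl3*, *Ccl4*, *Ccl5*, *Icam1*, *Sele*, *Plau*, *Csf2*, *Ifng* and *Il12b*. In the rest of the list, *Nos2*, *Cxcl5*, *Il1b* and *Mmp13* among them, the traction libraries all lay above the sham libraries. Over all genes, 17.7% were higher without overlap. *Csf3* had 0 counts in all 3 sham libraries and 29.7, 1.28 and 1.23 CPM in the traction libraries. With 0 to 4 counts in Tem1lacZ/lacZ sham libraries, *Csf3* passed the filter on low counts only through traction libraries. The fold of *Csf3* therefore describes these libraries and is no test of a rise. Against a floor of 3 counts in the smallest sham library its mean was at least 165-fold higher with traction, and at least 19.3-fold higher without replicate 1, an alternative chosen after seeing the data. This bound lies above the median of the list, so using it could not move the median from 3.90. Without *Csf3* the median was 3.78 (24 genes). No median of the list was computed without replicate 1 of the Tem1WT/WT traction group. The median of the list was 0.34 with traction in Tem1lacZ/lacZ mice, and between the genotypes with traction it was −3.39, with *Nos2* (−6.28, adjusted p = 0.0136 in edgeR) and *Cxcl1* (−4.30, adjusted p = 0.0335) called lower in Tem1lacZ/lacZ mice. Both missed the threshold without any 1 of the Tem1lacZ/lacZ traction libraries, and *Cxcl1* also without replicate 2 of the Tem1WT/WT sham group, any 1 of the Tem1lacZ/lacZ sham libraries or replicate 1 of the Tem1WT/WT traction group, so that it passed in 8 and *Nos2* in 14 of 19 alternatives. Neutrophil markers moved with this list, since their summed level was 314 to 7063 CPM in Tem1WT/WT traction scars, 116 to 121 CPM in Tem1WT/WT sham scars and 271 to 564 CPM in Tem1lacZ/lacZ traction scars, and 4 of 8 tested were called higher with traction in Tem1WT/WT mice. Their part in the list's change was not tested.

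Of 24 genes of corticosteroid synthesis, reactivation and transport, 17 were tested, and *Crh*, *Pomc*, *Hsd3b1*, *Cyp21a1*, *Cyp11b1*, *Cyp11b2* and *Srd5a2* did not pass the filter on low counts. With traction in Tem1WT/WT mice 2 rose and 1 fell (median of the list −0.52), against 9.15% of all genes called. *H6pd*, which supplies the cofactor that the *Hsd11b1* product needs to regenerate hormone, rose from 60.6 ± 6.19 to 170 ± 63.9 CPM (SD, n = 3 each), a log2 fold change of 1.49 (adjusted p = 0.0430 in edgeR). It passed in 6 of 19 alternatives, and missed the threshold in limma-voom (adjusted p = 0.0532) and in 9 of 12 edgeR fits without 1 library, the exceptions being replicate 1 of both Tem1lacZ/lacZ groups and replicate 2 of the Tem1WT/WT traction group. Its log2 fold change was 1.11 without replicate 1 of the Tem1WT/WT traction group (adjusted p = 0.108 in edgeR). *H6pd* was at 51.7 ± 22.5 CPM in sham and 83.9 ± 34.6 CPM in traction scars of Tem1lacZ/lacZ mice (0.70, 95% interval −0.15 to 1.55, adjusted p = 0.646 in edgeR). *Fdxr*, a ferredoxin reductase of mitochondrial steroid synthesis, rose by 0.75 in Tem1WT/WT mice (adjusted p = 0.0477 in edgeR), and *Akr1c18*, an enzyme that inactivates progesterone, fell by 2.18 (adjusted p = 0.0286). *Fdxr* passed in 5 of 19 alternatives and, without 1 library, only without replicate 1 of either traction group. *Akr1c18* passed in 15 of 19 and missed the threshold without replicate 1 or replicate 2 of the Tem1WT/WT sham group or replicate 3 of the Tem1lacZ/lacZ sham group. Averaged over both genotypes, *H6pd* rose by 1.09 (adjusted p = 0.0383 in edgeR) and *Akr1c18* fell by 1.81 (adjusted p = 0.0203), and they passed in 9 and 14 of 18 alternatives. *Akr1c18* missed the threshold without replicate 1 of the Tem1WT/WT sham group, replicate 2 of the Tem1lacZ/lacZ sham group or replicate 2 or replicate 3 of the Tem1lacZ/lacZ traction group. *H6pd* missed it without any 1 Tem1WT/WT sham library, replicate 1 of the Tem1WT/WT traction group, or replicate 2 or replicate 3 of either Tem1lacZ/lacZ group.

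**Figure D4:**
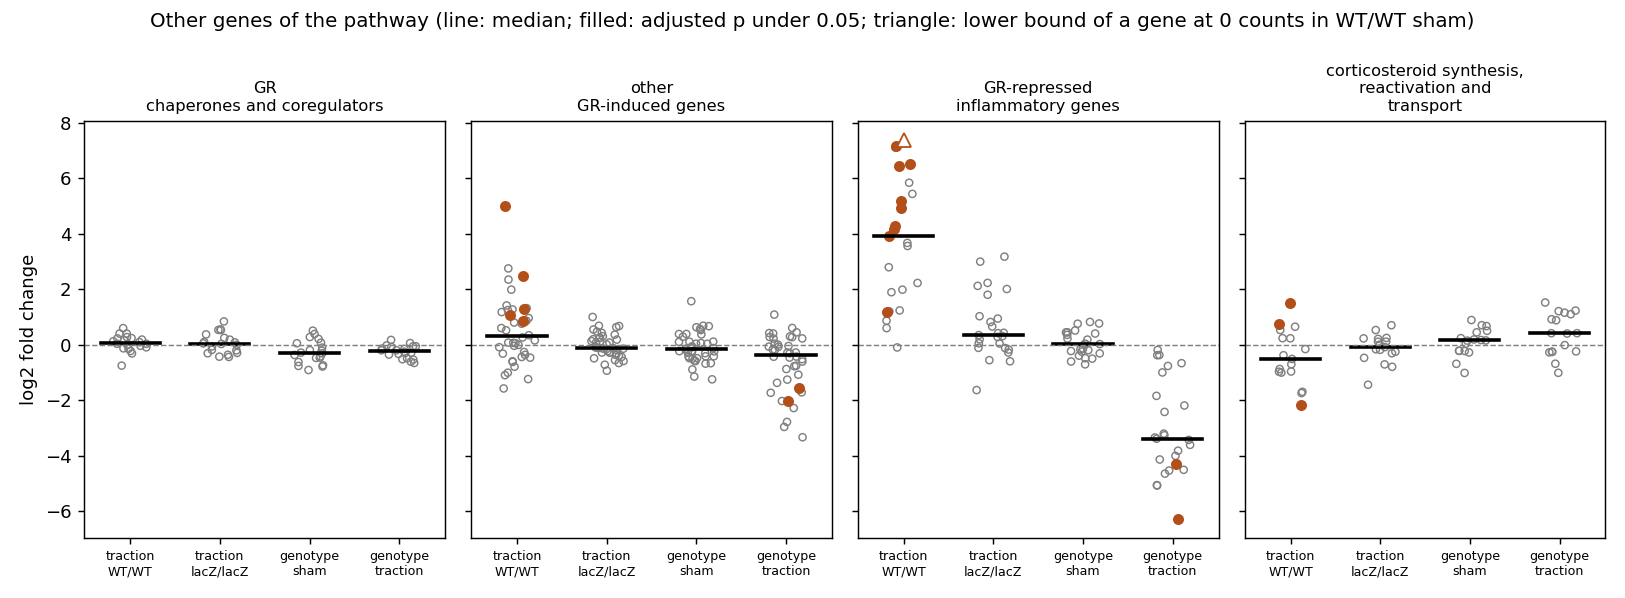
Log2 fold change (y axis) of each tested gene of the 4 pathway lists for the 4 comparisons between pairs of groups, with the list's median as a line, genes called by edgeR as filled points and the lower bound of *Csf3* as a triangle (*Csf3* is left out between the sham groups, where it was at or near 0 counts). The GR-repressed inflammatory genes lie mostly above 0 with traction in Tem1WT/WT mice (median 3.90) and below 0 between the genotypes with traction (median −3.39). The medians of the chaperones and coregulators are 0.06 and 0.03 for traction in Tem1WT/WT and Tem1lacZ/lacZ mice, and −0.30 and −0.23 between the genotypes without and with traction.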

How the data were processed

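RNA-seq of 12 mouse scars was analysed. The authors prepared stranded poly(A) libraries, trimmed reads with fastp 0.20.0, aligned them to GRCm38 with HISAT2 2.1.0 and counted them on genes with featureCounts 2.0.0, and deposited raw counts per gene for each library, without normalization. Neither the annotation nor the strand setting nor the treatment of multi-mapping reads is given in the sources used here. Library totals (41536788 to 64644293) put 1 count near 0.02 CPM.

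Counts were analysed in R 4.3.3 with edgeR 4.0.16, which filtered genes (filterByExpr by group), normalized them by TMM and fitted robust quasi-likelihood models of the 4 groups (8 residual degrees of freedom). Two-sided p-values were adjusted by Benjamini-Hochberg over 18853 genes. The study used DESeq2. Alternatives were DESeq2 size factors, upper quartile normalization, no filter, DESeq2 1.42.0 (Wald test), voom from limma 3.58.1 with sample weights, only the libraries compared, a replicate block, and leaving out each library. The edgeR, DESeq2 and voom fits were first tested on simulated counts, for traction in Tem1WT/WT mice only. Python 3.11.15 and matplotlib 3.10.9 served for the plots.

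The members and gene lists were chosen with earlier results of these data known, and no list was tested. Counts of called genes in the main edgeR fit are therefore given with the share of all genes called in the same comparison. Counts from DESeq2, limma-voom and the other alternatives have no such share beside them. Besides the members, *Cd248*, *Per1*, *Dusp1*, *Mt1*, *Mt2*, *Nr3c2*, *H6pd* and *Fkbp4* were named whatever their values, and per list and comparison up to 4 called genes with the largest change and a mean log2 CPM of at least 1. One gene that this rule names is not reported here. *Csf3*, *Tnf*, *Cxcl2*, the other inflammatory genes named for overlapping libraries, *Lamb3*, *4930570N18Rik* and *AC154912.1* were added after their values were seen. For each member the 3 genes with the most similar pattern were named, by the mean absolute difference of centred log2 CPM (prior count 2) over 12 libraries. Replicate numbers were not taken as pairs in the main fit, and a replicate block was run as an alternative. Same-numbered deviations from group means correlated between −0.324 and 0.250 over 18 pairs of groups and numbers, with 8 over 0.1. Differently numbered libraries were not compared, so these values cannot decide whether a number marks a shared batch.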

Additional observations from a re-analysis of the deposited data

How the results depend on the processing

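Every alternative listed under the processing was run for each of the 8 members. Members called by edgeR in Tem1WT/WT mice with traction (1) came to 0 with upper quartile normalization, limma-voom or only the libraries of the 2 groups, and to 0 to 1 without 1 library. For traction averaged over genotypes (1), the number came to 0 to 1 without 1 library and stayed at 1 in DESeq2 and limma-voom. For genotype with traction (0), DESeq2 called 1. For genotype averaged (0), DESeq2 called 2, limma-voom 1, and fits without 1 library 0 to 1. The fit with a replicate block called the same numbers of members in all 7 comparisons (*Fkbp5* with traction in Tem1WT/WT mice 0.99, adjusted p = 0.0492 in edgeR, and averaged 0.76, adjusted p = 0.0402) and, of the 102 pathway genes, 16 for traction in Tem1WT/WT mice, 12 averaged, 3 for genotype with traction and 2 averaged.

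Of the 102 pathway genes, traction in Tem1WT/WT mice gave 18 calls, 11 with no filter, 34 in DESeq2, 0 with only 2 groups and 0 to 34 without 1 library. Traction in Tem1lacZ/lacZ mice gave 0, then 1 in DESeq2, 4 in limma-voom and 0 to 2 without 1 library. Traction averaged gave 15, then 28 in DESeq2, 26 in limma-voom and 0 to 25 without 1 library. Genotype with traction gave 4, then 26 in DESeq2, 0 with only 2 groups and 1 to 16 without 1 library. Genotype without traction gave 0 and 1 in DESeq2. Genotype averaged gave 3, then 25 in DESeq2, 10 in limma-voom and 1 to 11 without 1 library. The interaction gave 0, then 6 in DESeq2 and 0 to 1 without 1 library. The cause was not tested.

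Signs turned only for values that did not pass the test. In limma-voom *Hsd11b1* was at 0.22 for the interaction, 0.69 for genotype with traction, 0.16 for traction in Tem1lacZ/lacZ mice and −0.064 in Tem1WT/WT mice, *Nr3c1* at 0.04 for traction in Tem1lacZ/lacZ mice, *Sgk1* at −0.043 for genotype averaged and *Tsc22d3* at 0.048 for traction in Tem1WT/WT mice. With upper quartile normalization *Hsd11b1* was at 0.060 for genotype with traction and *Sgk1* at −0.024 for traction in Tem1WT/WT mice. With the replicate block *Hsd11b1* was at 0.30 for genotype with traction and 0.11 for traction in Tem1lacZ/lacZ mice.

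Without 1 library, *Hsd11b1* ran from −0.74 to 0.87 (traction in Tem1WT/WT), −0.25 to 0.36 (traction in Tem1lacZ/lacZ), −0.39 to 0.41 (traction averaged), −0.51 to 1.10 (genotype with traction), −0.0048 to 0.73 (genotype without traction), −0.05 to 0.75 (genotype averaged) and −0.92 to 0.68 (interaction). *Hsd11b2* ran from −0.90 to 0.15 (traction in Tem1WT/WT), −0.018 to 0.55 (traction averaged) and −0.25 to 0.32 (genotype averaged). *Klf9* ran from −0.34 to 0.066 (traction in Tem1WT/WT) and −0.38 to 0.087 (interaction), *Nr3c1* from −0.20 to 0.13 (traction in Tem1lacZ/lacZ), *Sgk1* from −0.018 to 0.30 (traction in Tem1WT/WT) and −0.044 to 0.15 (genotype averaged), and *Tsc22d3* from −0.11 to 0.10 (traction in Tem1WT/WT). *Zbtb16* ran from −1.18 to 0.13 (traction in Tem1WT/WT), −0.25 to 0.22 (traction in Tem1lacZ/lacZ), −0.63 to 0.0053 (traction averaged) and −0.24 to 1.10 (interaction). *Hsd11b2*, at 6 to 62 counts a library, had the highest coefficient of variation between mice of the 8 members (59.0%).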

Other observations

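Patterns of single genes were compared with each member over the 12 libraries, by the mean absolute difference of centred log2 CPM, as a description. *Nr3c1* was nearest to *Cited2* (0.115), *Itpripl1* (0.115) and *Nrip1* (0.117), and *Klf9* to *Nr3c1* (0.171), *Dirc2* (0.172) and *Cited2* (0.175). *Sgk1* was nearest to *Tomm34* (0.124), *D230025D16Rik* (0.131) and *Pqlc2* (0.134). *Fkbp5* was nearest to *A430105I19Rik* (0.253), *Pkn3* (0.260) and *Tspan17* (0.262), and *Tsc22d3* to *1110002L01Rik* (0.230), *Gm29994* (0.232) and *Nxph3* (0.236). *Hsd11b1* was nearest to *Klrg1* (0.202), *Nlrc5* (0.253) and *Arhgap8* (0.281). *Zbtb16*, whose own mean absolute deviation was the largest of the 8 members (0.943), was nearest to *Gm34343* (0.331), *Gm33699* (0.434) and *LOC108167746* (0.447), and *Hsd11b2* to *Prtg* (0.367), *Prr18* (0.389) and *Rasgef1c* (0.393).

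Averaged over both genotypes, the GR-induced genes *Angptl4*, which encodes an inhibitor of lipoprotein lipase, and *Gadd45g* rose with traction by 0.97 (adjusted p = 0.0417 in edgeR) and 0.77 (adjusted p = 0.0309) on the log2 scale. They passed in 8 and 10 of 18 alternatives. Both missed the threshold without any 1 Tem1WT/WT sham library and without replicate 2 or replicate 3 of either Tem1lacZ/lacZ group, *Angptl4* also without replicate 1 of the Tem1WT/WT traction group and *Gadd45g* also without replicate 1 of the Tem1lacZ/lacZ sham group.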
